A study of Mus musculus with 11 samples.

Results

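Of 111041 genomic regions that carried a peak of open chromatin in at least 1 of 11 ATAC-seq libraries of mouse CD8 T cells, 6292 had a peak in resting splenocytes, none in effector cells, and again one in every day 9 library. ATAC-seq uses a transposase to cut and tag DNA that is not covered by nucleosomes. All peak lists were pooled on chromosomes 1 to 19 and X, and peaks sharing 1 bp or more became a single region. A member had a peak in the naive library, in the antigen-experienced library and in all 8 day 9 libraries, and no peak in the day 3 effector library. These 6292 are called returning regions here, which names the pattern of peak calls and not a measured closing and opening. Members were chosen by these measured peak calls, so that the missing effector peak and the peaks elsewhere are a description and carry no test.

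All cells were CD8 T cells from mouse spleen with a YFP reporter at Tcf7. Naive cells (CD44-, CD62L+, Tcf7-YFP+) and antigen-experienced cells (CD44+, CD62L+, Tcf7-YFP+) were sorted from splenocytes, with 1 library each. The effector library came from cells activated outside the animal for 3 days. For the other 8, cells were split by YFP at day 3, returned to culture and sorted a second time at day 9. Cells of the high_to_high group (2 libraries) were YFP-high both times, and those of the low_to_low group (3 libraries) YFP-low both times. The low_to_high group (3 libraries) had gained YFP between the sorts. YFP-high below means the 5 libraries of the first and the last of these groups, and YFP-low the 3 low_to_low libraries. Strain, age, sex and the number of animals were not given in the sources used here, nor was the origin of the replicates. The p-values may therefore measure only the spread between preparations.

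T cells keep a set of enhancers and promoters open while they rest, at genes for survival, homing and antigen receptor signalling. Activation changes this set within days, as the cell divides and builds up its killing machinery. TCF-1, the product of Tcf7, is a DNA-binding factor of naive and memory T cells that is lost in most effector cells, and YFP at its gene reads out this switch. The comparisons below ask which resting-cell regions without a peak at day 3 had one at day 9, and whether they differed with the YFP state.

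Total tags per library ran from 20.8 to 59.97 M. The lists held 46454 to 66117 peaks. The most common peak width was 133 bp in naive, 137 bp in high_to_high replicate 2 and 173 bp in every other library. What this width does to levels and to comparisons between libraries was not tested. The effector library was the second deepest, at 53.2 M tags, and had the longest list. Its share of tags inside peaks was 9.08%, against 15% in naive and 15.8% in the antigen-experienced library. The filter on local signal removed 53.3% of its putative peaks, the highest share among the 11 libraries (36.4 to 53.3%). At day 9 the share of tags in peaks was 9.01 to 10.2% in the 5 YFP-high and 10.4 to 12.5% in the 3 YFP-low libraries, without overlap. Cell type markers were read at promoter windows, from 250 bases before to 50 after a start, where RefSeq's table held one. The Cd3e promoter, of a T cell receptor subunit, had a peak in all 11 libraries. The Cd8a promoter had one only in the naive library and in high_to_high replicate 2, Cd3g in 8 of the 11, and Cd3d in none, so that the CD8 label is weakly marked at promoters. Among markers of other cells, the promoters of Cd79a, Pax5, Ebf1 and Cd22 (B cells), Lyz2 and Cd68 (myeloid cells), Ncr1 (natural killer cells), Foxp3 (regulatory T cells) and Gata1, Klf1 and Epor (red cell precursors) had no peak in any library. Those of Cebpa and Cebpb (myeloid cells), Nkg7 (cytotoxic cells) and Il2ra (activated and regulatory T cells) had one in all 11. That of Itgam (myeloid cells) had one in all but the effector library, that of Klre1 (natural killer cells) in the effector library only and that of Klrb1c (natural killer cells) in the naive library only.

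A few promoters show what such a region looks like, although most members lie elsewhere. Of the 6107 members on chromosomes with a promoter table, 357 (5.85%) overlapped a promoter window. The bases before the start are printed for 6 of them, from RefSeq (GRCm38.p6, the build of mm10), read along the strand of the gene. Cdca7l (chr12:117843611-117843860, plus strand) held the only promoter called in a day 9 comparison, Inpp5a (chr7:139400244-139400493, plus strand) was among the 3 members with the lowest p on the lower side in low_to_high cells, and Rasgrp1 (chr2:117342878-117343127, minus strand) was among the 4 strongest of its gene list. Cd160 (chr3:96814522-96814771, minus strand), Gzma (chr13:113100982-113101231, minus strand) and Cxcr3 (chrX:101734148-101734397, minus strand) are promoters of T cell genes that were chosen after their positions had been seen. Capitals mark the letters CAGGAAG, a core bound by ETS factors, and TGTGGTT, a core bound by RUNX factors, on either strand.
Cdca7l: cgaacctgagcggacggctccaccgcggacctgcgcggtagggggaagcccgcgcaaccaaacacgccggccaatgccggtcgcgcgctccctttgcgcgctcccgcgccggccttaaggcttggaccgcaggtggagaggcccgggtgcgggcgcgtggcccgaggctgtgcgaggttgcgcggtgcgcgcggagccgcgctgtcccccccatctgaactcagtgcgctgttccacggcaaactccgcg
Inpp5a: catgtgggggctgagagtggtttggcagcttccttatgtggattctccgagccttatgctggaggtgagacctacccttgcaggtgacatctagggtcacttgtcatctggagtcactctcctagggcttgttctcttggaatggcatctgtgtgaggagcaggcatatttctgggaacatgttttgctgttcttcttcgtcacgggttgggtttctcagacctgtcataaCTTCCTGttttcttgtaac
Rasgrp1: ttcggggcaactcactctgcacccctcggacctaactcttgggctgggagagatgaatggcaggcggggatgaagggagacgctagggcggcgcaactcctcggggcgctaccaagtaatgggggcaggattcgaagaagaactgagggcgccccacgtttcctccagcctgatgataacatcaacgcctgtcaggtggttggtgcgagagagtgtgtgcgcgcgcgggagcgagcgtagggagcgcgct
Cd160: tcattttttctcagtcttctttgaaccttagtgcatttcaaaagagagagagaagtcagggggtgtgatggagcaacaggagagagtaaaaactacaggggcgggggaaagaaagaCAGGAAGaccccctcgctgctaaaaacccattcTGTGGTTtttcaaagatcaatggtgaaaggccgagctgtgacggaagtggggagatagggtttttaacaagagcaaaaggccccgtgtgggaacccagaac
Gzma: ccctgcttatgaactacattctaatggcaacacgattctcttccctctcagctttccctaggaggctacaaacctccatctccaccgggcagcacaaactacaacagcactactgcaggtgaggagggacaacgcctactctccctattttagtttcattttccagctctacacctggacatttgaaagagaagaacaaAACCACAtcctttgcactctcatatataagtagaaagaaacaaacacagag
Cxcr3: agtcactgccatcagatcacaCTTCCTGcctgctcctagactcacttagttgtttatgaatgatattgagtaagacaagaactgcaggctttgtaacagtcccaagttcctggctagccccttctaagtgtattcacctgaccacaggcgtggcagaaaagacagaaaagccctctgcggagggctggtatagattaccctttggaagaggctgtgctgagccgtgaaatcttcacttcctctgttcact
The Cdca7l stretch held 73.2% G and C bases and no capital, and the Rasgrp1 stretch held 62.4% and no capital either. The Cd160 stretch, at 47.6%, held both cores. The Gzma stretch held the RUNX core, and those of Inpp5a and Cxcr3 held the ETS core. Each stretch of 250 bases runs past its returning region. The overlap was 205 bases for Cdca7l, 188 for Inpp5a, 141 for Rasgrp1, 189 for Cd160, 192 for Gzma and 191 for Cxcr3. The ETS core of Cxcr3 lies outside the returning region (chrX:101733909-101734338), and the other marked cores lie inside theirs.

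Over the 418 promoter windows of 300 bases that touched a returning region, 22.2% held the ETS core on either strand. It was in 12.5% of the 8568 windows that touched a region called in all 11 libraries, and in 13.4% of all 32585 windows. The RUNX core stood in 8.13, 3.54 and 5.29% of these windows, in the same order, and the E-box core CAGCTG, bound by factors such as TCF-12, in 20.1, 13.4 and 16.4%. The GC-rich core GGGCGGG, bound by SP and KLF factors, was in 41.9, 49.1 and 25.7%. The core TGANTCA of AP-1, where N is any base, was in 4.31, 4.31 and 7.85%. Each core was counted on its own, so that 1 window can hold several. Base composition differed as well, with a median of 57.3% G and C in returning windows, 61.7% in windows of regions called everywhere and 53.0% in all windows. These are letter matches in promoter windows and carry no test.

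At the edge of the rule, the members with the lowest values were a region near Ocstamp (chr2:165401013-165401434), 1 with no gene within 100 kb (chr2:166457447-166457722) and 1 near Atp2b1 (chr10:98848479-98848973). Each held a normalized tag count of 2.80 in the naive library, on a scale of tags per 10 M tags. Just outside the rule, regions in Stim1 (chr7:102326386-102326577) and Serpinb1c (chr13:32929215-32929594) and near Prag1 (chr8:36041501-36041778) were left out by an effector peak of 2.91. The weakest effector peak of the list stood at 2.63. A missing peak is thus a value below a local threshold, not a measured 0. An effector peak lay within 500 bp of 944 members (15%), and the median distance to the nearest one was 3406 bp.

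Returning regions were weaker than regions called in all 11 libraries in the splenocyte libraries too. Their median normalized tag count was 17.2 in naive cells (quartiles 9.06 and 33.2) and 21.3 in the antigen-experienced library (quartiles 11.9 and 39.4), against 28.1 and 33.7 for the 23471 regions called in all 11 libraries. At day 9 their medians were 14.1 and 14.0 in high_to_high, 14.8, 15.9 and 14.6 in low_to_high, and 16.1, 18.8 and 16.1 in low_to_low libraries. Medians of the everywhere-called regions ran from 19.8 to 28.3 in these libraries. The ratio of the medians was 0.612 (naive), 0.632 (antigen-experienced) and 0.663 to 0.709 at day 9. In a library of many cells, an opening in fewer cells and a weaker opening in each cell cannot be told apart. The plot of levels by library shows both classes side by side.

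**Figure D1:**
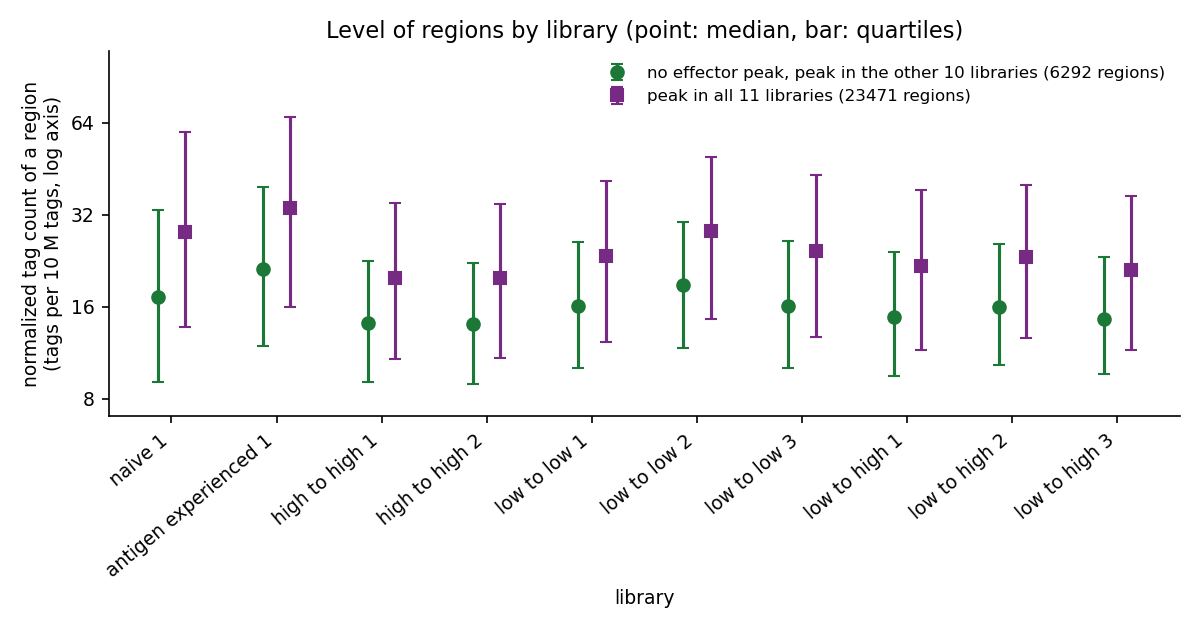
Normalized tag count (tags per 10 M tags, log axis) of returning regions (circles) and of regions called in all 11 libraries (squares) in each library with a value for both; points are medians over regions and bars run between quartiles. Returning regions have the lower median in all 10 libraries, 17.2 against 28.1 in naive cells and 14.0 to 18.8 against 19.8 to 28.3 at day 9.

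The chance of lacking an effector peak fell with the splenocyte level. Of the 29763 regions with a peak in both splenocyte libraries and all 8 day 9 libraries, 6292 lacked an effector peak. Ranked by their mean log2 level in the 2 splenocyte libraries, 31.2% of the lowest 5953 lacked one, then 24.9, 24.1 and 18.4% in the next groups of about the same size, and 7.16% of the highest 5953. Strong members were therefore rare, but they exist. The strongest lay near Dad1 (chr14:54227509-54227699), a subunit gene of the enzyme that attaches sugars to proteins, near the T cell receptor alpha locus. It held 169.6 in naive, 167.4 in antigen-experienced and 74.2 to 101.7 in day 9 libraries, with no effector peak in the region. Others of the 10 strongest lay in or near Dnajc5b, Lonp2, Eif2ak3, Clec11a, Kcnc1, Smndc1, Nsmce1, Mppe1 and Abhd8, with 88.3 to 132.3 in naive and 52.1 to 90.4 in day 9 libraries.

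The position of returning regions relative to genes was described beside that of other regions, without a test. Of the 6292, 3877 (61.6%) lay inside the span of a protein-coding gene, close to the 60.6% of all regions. The gene table gives no exons, so that exons and introns were not told apart. While 5.85% touched a promoter window, 29.9% of regions called in all 11 libraries and 10.3% of all regions did, on the same chromosomes. The median distance to the nearest start was 15662 bp for members, 7959.5 bp for regions called everywhere and 15873 bp for all regions. A gene within 100 kb was found for 5945 members. Nearness does not show which gene a region serves.

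The returning pattern was common among splenocyte regions that had no effector peak. The rule places it in all 8 day 9 libraries, so that only the share per library below compares the states. Both splenocyte libraries had a peak in 44068 regions, and 14809 of these (33.6%) lacked an effector peak. Of the 14809, 6292 (42.5%) had a peak in all 8 day 9 libraries, 1961 (13.2%) in none, and the rest in 1 to 7. Of the splenocyte regions that kept an effector peak, 80.2% had a peak in all 8 day 9 libraries and 1.31% in none. The share of the 14809 that had a peak again was 63.8 and 77.3% in high_to_high libraries, 66.7, 63.6 and 60.9% in low_to_high libraries, and 68.1, 69.9 and 60.8% in low_to_low libraries. High_to_high replicate 2 was the highest, and the other 7 libraries overlapped between groups.

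The YFP-high libraries had a mean share of 66.5% ± 6.38 (SD, n = 5) and the YFP-low libraries 66.3% ± 4.82 (SD, n = 3), with a two-sided exact permutation p of 1.0, where 0.0357 is the smallest this design can give. The 3 comparisons between pairs of groups gave exact permutation p from 0.4 to 0.6, each 0.8 after Benjamini-Hochberg adjustment over the 4 comparisons. Such a test cannot go below 0.1 with 3 libraries against 3, or below 0.2 with 2 against 3. The sign of the YFP difference, 0.189 percentage points, turned to -2.51 without high_to_high replicate 2 and to -2.55 without low_to_low replicate 3. The share followed depth. Across the 8 libraries it correlated with total tags at Pearson r = 0.982 (exact permutation p = 0.000347, adjusted 0.000694 over 2 relations) and Spearman rho = 0.952 (exact permutation p = 0.00114). Without high_to_high replicate 2 and low_to_high replicate 3, the 2 libraries farthest from the median depth, r was 0.945 (n = 6). With each list cut to its 46416 strongest peaks, 15000 splenocyte regions lacked an effector peak, and r was 0.469 (exact permutation p = 0.223, adjusted 0.223) and rho 0.524 (exact permutation p = 0.197). The YFP-high mean was then 69.9% and the YFP-low mean 69.0% (exact permutation p = 0.5). The plot of peaks called again by depth shows both versions.

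**Figure D2:**
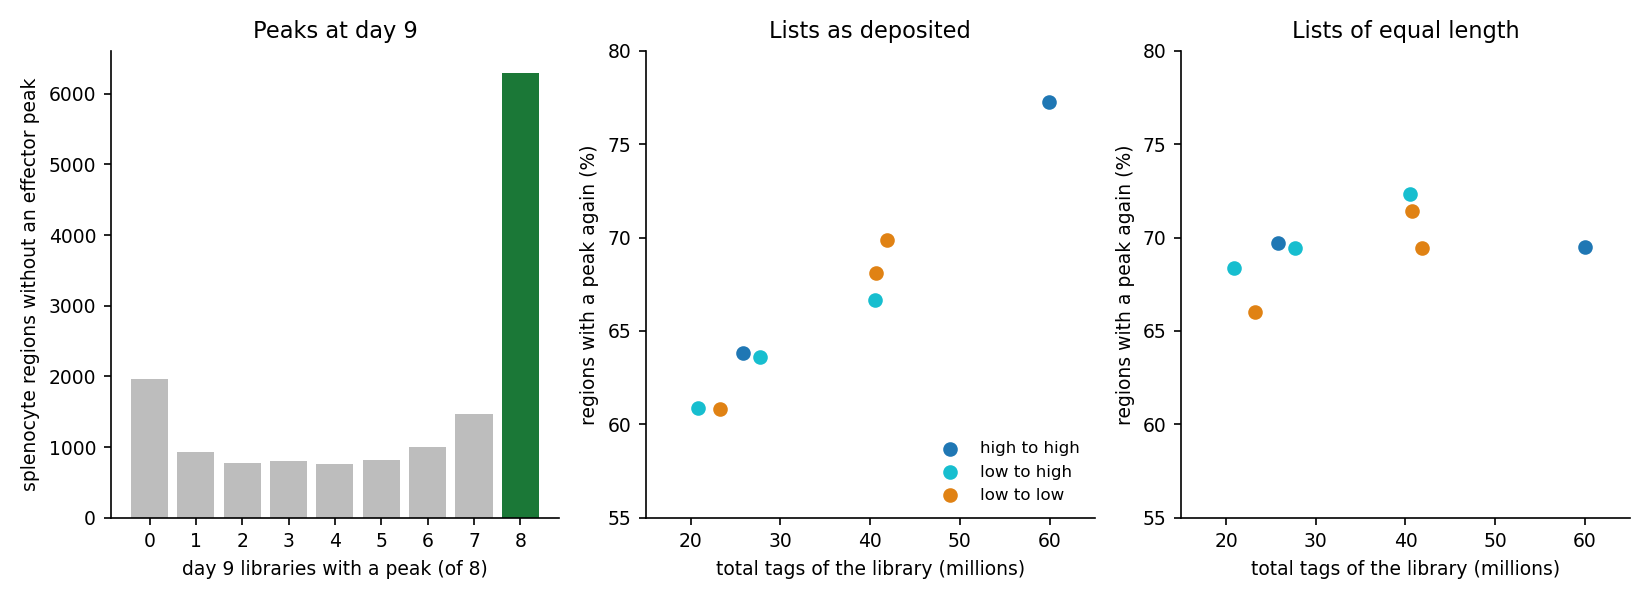
Left, splenocyte regions without an effector peak by the number of day 9 libraries in which they had a peak, with the 6292 members in green. Middle and right, the share of such regions with a peak in each day 9 library against its total tags (points are libraries, colours are groups), for the lists as deposited (14809 regions) and for lists of equal length (15000 regions); the deposited shares climb from 60.8 to 77.3% with depth, the others lie between 66.0 and 72.3%.

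Returning regions were spread over many genes. The 5945 members with a gene were assigned to 3874 genes, 2628 of which had a single member. Members were 14.3% of all splenocyte regions. The genes named next were chosen for their number of members, so that their shares carry no test. Bach2, which encodes a repressor that holds back effector differentiation, had the most, with 11 of its 33 splenocyte regions. Another 12 of the 33 were called in all 11 libraries. Foxp1, a factor that keeps naive T cells at rest, had 9 members among 42 splenocyte regions. Prkcq, the gene of the kinase that couples the T cell receptor to NF-kB, had 8 of 25. Tbl1xr1, a corepressor subunit, had 9 of 18, and Cdk19, a kinase of the Mediator complex, 8 of 16. Hdac4, a histone deacetylase, had 8 of 19, Pced1b and Thada 8 of 24 each, Ankrd11 7 of 18 and Ctif 7 of 26. These genes are long, from 129.3 kb for Prkcq to 597.4 kb for Foxp1. Bach2 and Foxp1 also had the most regions of any kind among them, 82 and 102.

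Genes of T cell function were compared by 8 lists that overlap in part. In every list, more of the splenocyte regions lacked an effector peak than the 33.6% of all regions. The share was 56.3% for T cell identity, 53.8% for T cell receptor signalling, 50.8% for cytokine receptors with JAK and STAT genes, 49.5% for naive and memory genes, 47.9% for quiescence, 46.9% for effector genes, 45.2% for homing and adhesion, and 40.3% for inhibitory receptors and exhaustion. Markers of other cells were above it as well, with 6 of 15 regions for B cells (40%), 14 of 26 for myeloid cells (53.8%), 11 of 23 for natural killer cells (47.8%) and 16 of 20 for CD4 T cells (80%), while red cell markers had 0 of 3. The share of those regions that were members lay on both sides of the 42.5% of all regions. Among the 8 lists it ran from 31.6% for T cell identity, with 24 members, to 61.3% for inhibitory receptors, with 19. Markers of other cells ran from 42.9% (myeloid cells, 6 of 14) to 63.6% (natural killer cells, 7 of 11). Naive and memory genes had 70 members of 158 (44.3%), effector genes 35 of 67 (52.2%), T cell receptor signalling 42 of 98 (42.9%), cytokine receptors 49 of 91 (53.8%), quiescence 29 of 57 (50.9%) and homing 22 of 47 (46.8%). Among the 8 lists, T cell identity also had the largest share without a peak in any day 9 library, 20 of 76 regions (26.3%). The share was 13.2% of all regions, and markers of other cells ran from 9.09% (natural killer cells, 1 of 11) to 35.7% (myeloid cells, 5 of 14). These are counts without a test.

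**Figure D3:**
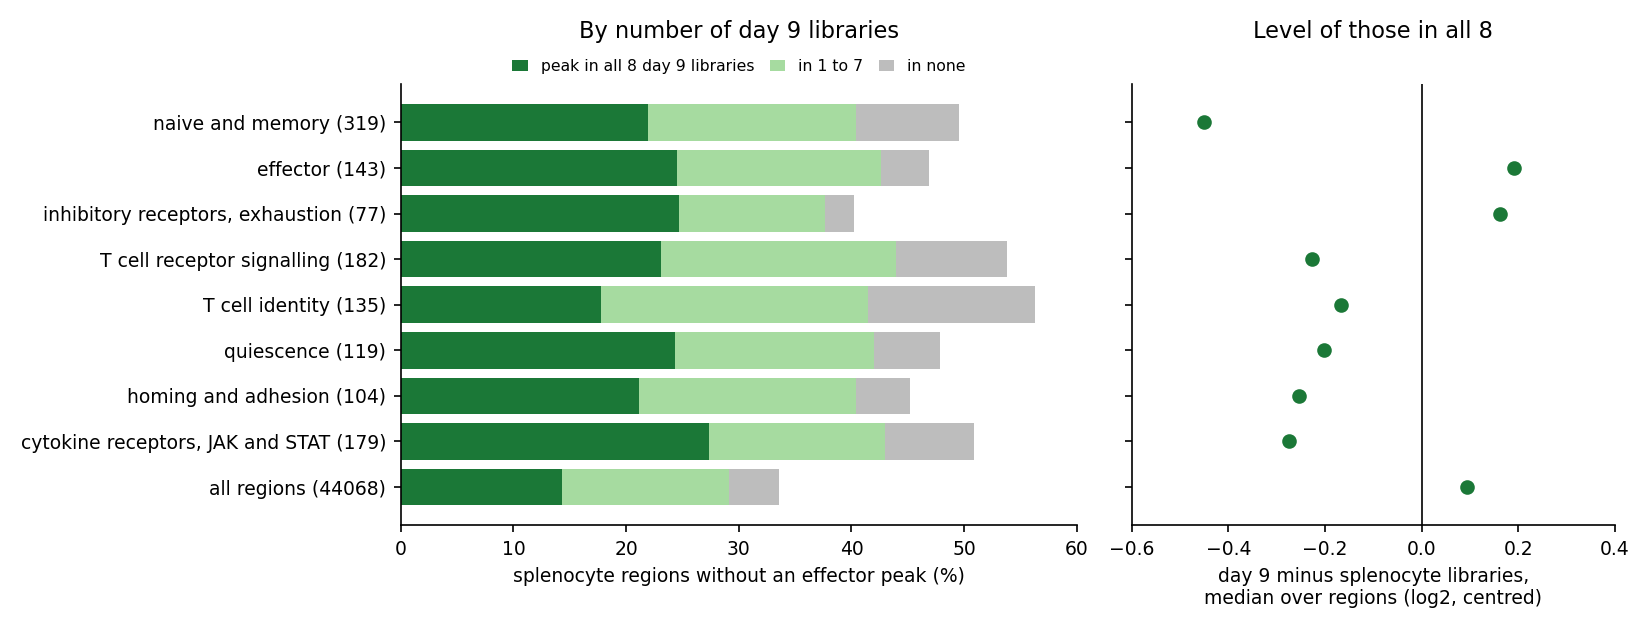
Left, share of splenocyte regions without an effector peak for each gene list (number of splenocyte regions in brackets), split by whether all 8, 1 to 7 or none of the day 9 libraries had a peak; the bar is longest for T cell identity (56.3%) and shortest for all regions (33.6%). Right, median over the members of each list of the day 9 level minus the mean of the naive and antigen-experienced libraries (log2, each library centred on the regions called in all 11), from -0.45 for naive and memory genes to 0.19 for effector genes, although without centring all medians are below 0 (effector genes -0.24). The lists are not matched for splenocyte level.

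The day 9 levels of returning regions are given against the splenocyte levels as a description, for all members and by gene list, without a test between lists. Levels were compared as log2(normalized tag count + 1) after subtracting from every library the median of its regions called in all 11, and as the mean of 8 day 9 libraries minus the mean of the 2 splenocyte libraries. Over all members the median difference was 0.09, and 3513 of 6292 (55.8%) were above 0. In single day 9 libraries the median ran from 0.03 to 0.15. Regions called in all 11 libraries had a median of -0.12. On the deposited scale, without centring, the medians were -0.34 and -0.55, so that the sign of the member value depends on the scaling and the order of the classes does not. All 8 day 9 libraries lay above both splenocyte libraries in 1725 members (27.4%, against 16.7% of regions called everywhere), and below both in 1182 (18.8 against 27.9%). On the deposited scale the balance turned, with 548 members above (8.71%, against 4.86%) and 2452 below (39.0%, against 54.1%). The change also went with the splenocyte level, among regions with a peak in both splenocyte and all 8 day 9 libraries. On the deposited scale, the lowest 5953 by that level had medians of 7.33 (naive), 9.16 (antigen-experienced) and 8.97 (day 9). The highest 5953 had 85.1, 91.4 and 51.45, in the same order. The gene lists were not matched for this level.

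Regions of naive and memory genes returned at the lowest relative level, with a median of -0.45 and 57 of 70 below 0. The part of the splenocyte level in this order of the lists was not tested. All 11 Bach2 regions lay below 0 (-1.07 to -0.05). So did all 6 of Satb1, a chromatin organizer of T cells (-1.55 to -0.21), all 3 of Ccr7, the receptor that guides naive cells into lymph nodes (-1.07 to -0.82), and both Tcf7 regions (-0.59 and -0.46). The 13 regions above 0 included all 3 of Eomes (0.05 to 0.33). They also included 3 of 4 for Klf3, 3 of 9 for Foxp1 and 1 of 4 for Lef1. The Ccr7 region at chr11:99163043-99163294 held 104.5 and 94.0 in the naive and antigen-experienced libraries, and 32.1 and 35.8 in high_to_high, 38.4, 39.2 and 30.7 in low_to_high and 41.1, 40.3 and 31.6 in low_to_low libraries. Every day 9 library was thus below both splenocyte libraries, and the day 9 groups overlapped. The strongest Bach2 region (chr4:32250314-32250585, inside the gene) held 98.2 and 125.5 in the splenocyte libraries and 46.3 to 74.1 at day 9. An effector peak lay 149 bp from this Bach2 region. The Tcf7 region at chr11:52265656-52265891, inside the gene, held 103.8 and 121.2, and 49.8 to 76.2 at day 9. In Lef1 (chr3:131157523-131157726), the gene of a factor related to TCF-1, the values were 105.9 and 103.5, and 46.8 to 75.6 at day 9. An Ikzf1 region (chr11:11726090-11726358), in the gene of the lymphoid factor Ikaros, went from 125.7 and 108.4 to 40.3 to 65.3.

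Regions of effector genes returned at a median of 0.19, with 22 of 35 above 0, and those of inhibitory receptors and exhaustion genes at 0.16, with 11 of 19 above 0. On the deposited scale both medians fell below 0, to -0.24 and -0.27, still above the -0.88 of naive and memory genes. Here too the part of the splenocyte level was not tested. All 3 regions near Gzmb, the gene of the killing protease granzyme B, were above 0 on the centred scale (0.46 to 1.30). The first of them (chr14:56287835-56288110) held 9.19 in the naive library and 23.4 in the antigen-experienced one, and 22.3 to 34.2 at day 9. The other 2, farther from the gene, held 20.8 and 30.5, then 22.5 to 36.2, and 31.6 and 41.5, then 30.0 to 46.2, so that day 9 and splenocyte values overlapped on the deposited scale. The region near Ifng, the gene of interferon gamma (chr10:118469154-118469397), held 24.3 in the naive and 69.7 in the antigen-experienced library. At day 9 it held 30.4 and 34.3 in high_to_high, 35.4, 39.4 and 42.5 in low_to_high and 43.1, 49.6 and 45.5 in low_to_low libraries, between the 2 splenocyte values in all 8. A region near the Ctla4 gene of an inhibitory receptor (chr1:60916468-60916728) held 53.4 and 50.5 in splenocytes and 36.7 to 46.2 at day 9. It was lower at day 9 on the deposited scale, but slightly above 0 on the centred one (0.07). A region in Nr4a2, a nuclear receptor gene induced by antigen receptor signals (chr2:57114885-57115128), held 36.1 and 62.6, then 32.9 to 48.3 (0.16 on the centred scale). Regions near Nr4a3 (115 and 109.7, then 46.9 to 68.6), Lag3 (46.4 and 41.1, then 22.9 to 39.7), Fasl (63.2 and 61.8, then 29.3 to 43.0), Runx3 (71.4 and 74.8, then 34.8 to 52.8) and in Il2ra (76.1 and 98.4, then 48.2 to 69.0) were lower at day 9 on the deposited scale.

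T cell receptor signalling regions had a median of -0.23, with 32 of 42 below 0. All 8 Prkcq members were below 0 (-1.03 to -0.08). The promoter region of Rasgrp1 (chr2:117342737-117343018), whose stretch is printed above and which had an effector peak 81 bp away, was near 0 at -0.02. It held 72.8 and 65.8 in splenocytes, 44.4 and 48.4 in high_to_high, 50, 45.7 and 47.5 in low_to_high and 50.6, 68.4 and 51.3 in low_to_low libraries. Rasgrp1 activates Ras below the T cell receptor. A region in Ptpn22, a phosphatase gene that damps the receptor, was among the strongest of this list (87.4 and 115, then 51.9 to 72.0). Of the other promoters printed above, that of Cd160, a receptor of the inhibitory list, held 38.1 and 43.9 in splenocytes and 11.2 to 17.7 at day 9, so that every day 9 library was below both. The Gzma promoter, of granzyme A, held 16.1 and 19.4, then 13.1 to 21.4. That of Cxcr3, a receptor that guides T cells to inflamed tissue, held 8.93 and 28.3, then 17.4 to 24.4, between the splenocyte values.

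Homing genes had a median of -0.25 (15 of 22 below 0), cytokine receptor genes -0.27 (36 of 49), quiescence genes -0.20 (21 of 29) and T cell identity genes -0.17 (15 of 24). Regions near Cxcr4 (117.8 and 118.7, then 45.9 to 64.9), Cxcr5 (88.7 and 106.3, then 30.0 to 41.8) and S1pr1 (79.3 and 78.8, then 43.7 to 58.1) led the homing list, which holds receptors that steer T cells through lymphoid tissue. Stat5b, a factor below the interleukin-2 and interleukin-7 receptors, had a region inside the gene (chr11:100824039-100824271) with 112.3 and 99.9 in splenocytes and 40.5 to 48.0 at day 9. Ifngr1 and Il18r1, receptors for interferon gamma and interleukin-18, had 85.4 and 88.6, then 36.6 to 60.6, and 72.0 and 87.1, then 37.2 to 61.4. A region near Slfn2, a gene needed for T cell quiescence, held 113.4 and 106.1, then 43.2 to 63.8. In Foxp1 a region at chr6:99435197-99435464 held 63.4 and 58.4 in splenocytes. It held 31.6 and 30.5 in high_to_high, 41.2, 40.6 and 41.0 in low_to_high and 56.1, 52.0 and 50.9 in low_to_low libraries, which do not overlap on the deposited scale. Its centred difference between YFP-high and YFP-low did not pass (-0.30 ± 0.10 SE, limma adjusted p = 0.314).

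The extremes of the change lay outside these lists, apart from Cish. The largest excess at day 9 was in Itga9, an integrin subunit gene (chr9:118884510-118884722), with 4.13 and 5.97 in splenocytes and 25.2 to 38.8 at day 9, a difference of 2.78. By gene, Ralgps1 (2.70), Tmem171 (2.51), Cish (2.49) and Septin7 (2.39) came next. Cish encodes an inhibitor of cytokine signalling that STAT5 induces. Its region (chr9:107306233-107306552), near the gene, held 10.9 and 7.46, then 29.3 to 50.7. Among members with a gene, the largest deficits were in Fndc7 (-2.32), near Gm38457 (-2.25), and in Fam234a (-2.15), G3bp2 (-2.13) and Cap2 (-2.08). A region with no gene within 100 kb (chr5:64684311-64684653), singled out after its values were seen, had -2.47, with 59.6 and 79.0 in splenocytes and 6.02 to 11.6 at day 9. The G3bp2 region (chr5:92103105-92103302), in the gene of a stress granule protein, held 80 and 85.9 in splenocytes and 11.2 to 16.4 at day 9.

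With each library centred, the returning regions called between the YFP states at day 9 were all higher in YFP-high cells, while without centring most calls were lower (39 higher, 275 lower). All 6292 members could be tested, since the rule asks for a peak in all 8 day 9 libraries. By limma, 57 were higher and 0 were lower in YFP-high than in YFP-low libraries, or 0.906% of members, against 0.332% of the 34383 regions tested (0.329% higher, 0.00291% lower). Of regions called in all 11 libraries 44 were higher (0.187%). Members were 18.3% of the tested regions and 50.4% of those called higher, but 26.7% of those (4 of 15) without low_to_low replicate 2 and 34.5% (10 of 29) when low_to_low replicate 3 was left out. At an unadjusted p under 0.05, 512 members were higher and 183 lower (11.05% of members, against 8.07% of all tested regions, with 1634 higher and 1142 lower). The median member differed by 0.02 on the log2 scale, against -0.0049 over all tested regions. In 5 groups by day 9 level, from the lowest to the highest, lay 8, 18, 19, 11 and 1 of the 57. The groups held unequal numbers of members, 1395, 1497, 1643, 1230 and 527, so that 0.573, 1.20, 1.16, 0.894 and 0.190% were called. For regions called in all 11 libraries the shares were 0.232, 0.407, 0.160, 0.173 and 0.0479%.

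**Figure D4:**
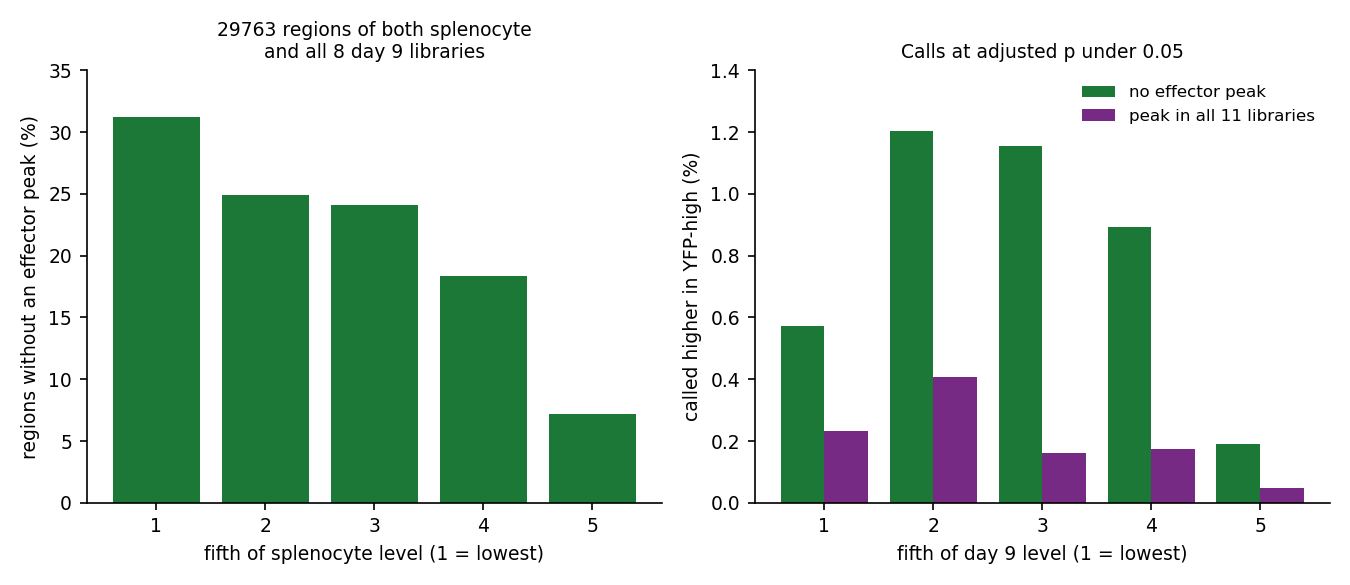
Left, share of regions without an effector peak among regions with a peak in both splenocyte and all 8 day 9 libraries, in 5 equal groups by mean splenocyte level; it falls from 31.2 to 7.16%. Right, share called higher in YFP-high than in YFP-low libraries (limma, adjusted p under 0.05) in 5 groups by day 9 level, which hold unequal numbers of either class, for returning regions and for regions called in all 11 libraries; the returning share is the higher one in each group, 1.20 against 0.407% in the second.

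Fold changes of the 57 (log2) ran from 0.46 to 1.05, with a median of 0.76. None touched a promoter window, 43 lay inside a gene, and 3 had an effector peak within 500 bp. Their medians were 20.9 and 18.3 in high_to_high, 18.6, 16.1 and 15.1 in low_to_high and 13.6, 11.3 and 9.88 in low_to_low libraries, and 24.5 in naive and 30.5 in antigen-experienced cells. In 37 of the 57 every YFP-high library was above every YFP-low library on the deposited scale, as in 35 of the 56 other regions called higher. The region in Evi5, a gene of a regulator of membrane traffic and cell division (chr5:107840672-107840850), led. It held 33.1 and 28.2 in high_to_high, 26.5, 26.9 and 27.8 in low_to_high and 19.9, 17.1 and 11 in low_to_low libraries, without overlap between the YFP states. The splenocyte libraries held 62.9 and 82.2 there. The log2 fold change was 1.05 ± 0.14 (SE, limma adjusted p = 0.000303).

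In Fnip2, a partner of folliculin in nutrient sensing (chr3:79535816-79536041), the values were 30.8 and 27.1, then 31.9, 22.2 and 30.7, then 20.9, 14.0 and 13.1, in the same order of groups, with a fold change of 1.03 ± 0.15 (SE, limma adjusted p = 0.000348). In Cacna1d, a voltage-gated calcium channel gene (chr14:30427969-30428215), they were 10.5 and 11.5, then 11.7, 13.2 and 13.2, then 6.39, 7.53 and 6.02 (0.99 ± 0.15 SE, limma adjusted p = 0.000452). The YFP states did not overlap in either region. Naive cells held 11.7 and 7.86 there. Aldh1a3, which makes retinoic acid, had a region (chr7:66416687-66416894) with 26.0 and 18.8, then 19.5, 15.7 and 16.1, then 14.1, 10.8 and 7.73 (1.00, limma adjusted p = 0.00237). Splenocytes held 4.66 (naive) and 26.6 (antigen-experienced). Mcoln2, a cation channel gene of endosomes (0.92), Plxdc1 (0.91), Lyzl4 (0.89), Zgrf1, a helicase gene (0.87), Plch2, a phospholipase C gene (0.99), and Fndc7 (0.92) completed the 10 largest, with limma adjusted p from 0.00219 to 0.0201. In Plch2 and Fndc7 low_to_high libraries overlapped the low_to_low ones. An effector peak lay 88 bp from the Mcoln2 region.

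**Figure D5:**
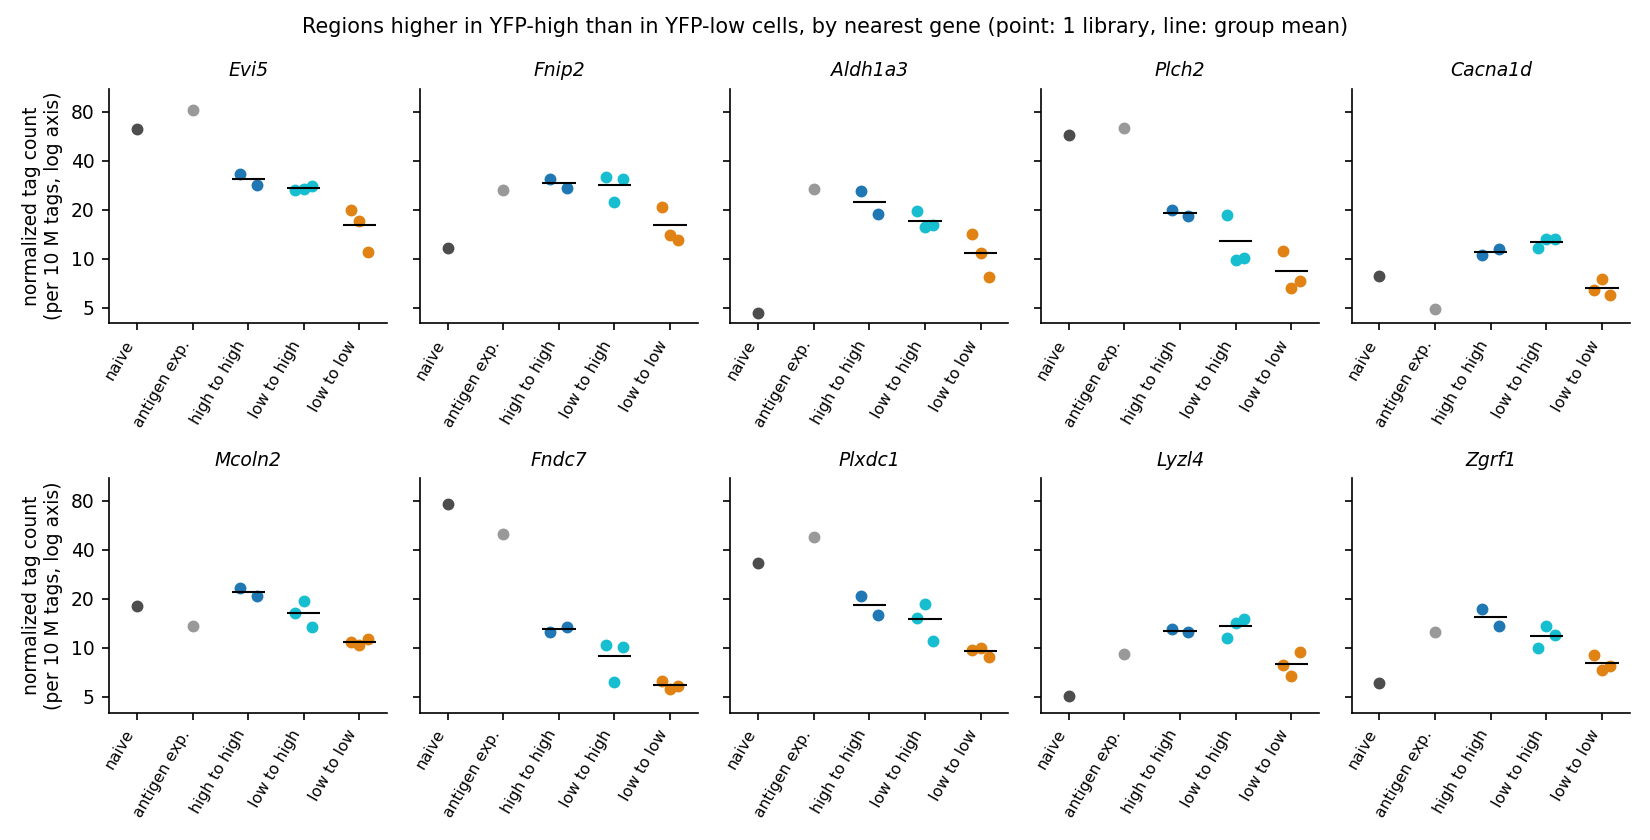
Normalized tag count (tags per 10 M tags, log axis) in each library for the 10 returning regions with the largest fold change among those higher in YFP-high than in YFP-low libraries, named by nearest gene; each point is a library and the line is the mean of a group with 2 or 3 libraries. The low to low points lie lowest at day 9 in all 10 panels on average, and naive and antigen-experienced values stand far above them at Evi5, Plch2, Fndc7 and Plxdc1. The naive value is below the low to low mean at Fnip2, Aldh1a3, Lyzl4 and Zgrf1, and the antigen-experienced value is below it at Cacna1d.

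Members with the lowest p among those with lower values were in Kcnt1, a potassium channel gene (-0.44 ± 0.11 SE, limma adjusted p = 0.0676), near Ust (-0.39, limma adjusted p = 0.0957) and near Gucy2e (-0.52, limma adjusted p = 0.103), and did not pass. Of the gene lists, naive and memory genes had 1 of 70 members higher, and quiescence genes 1 of 29, against 0.906% of all members. In both it was the region near Btg1 (chr10:96602375-96602616), an antiproliferative gene of resting cells on both lists. It held 38.3 and 35.6, then 31.0, 31.8 and 30.5, then 27.3, 24.4 and 22.8 (0.63 ± 0.12 SE, limma adjusted p = 0.00593), with no overlap between the YFP states. The other 6 lists and the B cell, myeloid, natural killer and CD4 T cell markers, with 3, 6, 7 and 7 members, had 0 members called in either direction, and red cell markers had no member. Summed over the regions near them, markers of B cells held 191 to 231 in the YFP-high and 246 to 328 in the YFP-low libraries, those of natural killer cells 624 to 696 and 737 to 868, and those of myeloid cells 451 to 523 and 531 to 577, on the deposited scale. CD8 T cell markers held 508 to 667 and 614 to 713, and CD4 T cell markers 420 to 513 and 441 to 493. On that scale the median tested region itself differed by -0.22 (log2) between YFP-high and YFP-low libraries. The part of the markers in the result was not tested.

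The number of calls rested on single libraries. It was 22 without high_to_high replicate 1 (of 44 among all tested regions) and 28 without high_to_high replicate 2 (of 66). Without low_to_low replicate 1 it was 101 (of 206 higher and 4 lower). It was 10 (of 29) when replicate 3 of that group was dropped, and 4 (of 15) when its replicate 2 was. Of the 10 largest, Evi5, Fnip2 and Cacna1d passed whichever single day 9 library was left out. Once tags in peaks entered the fit as a covariate, 0 members were called, although all 57 kept a positive value (median 0.44, median SE 0.25, against 0.76 and 0.15). That share does not overlap between the YFP states, so that the 2 cannot be told apart. On the deposited scale, where the median tested region differed by -0.22, 39 members were higher and 275 lower, of 79 and 1943 among all tested regions.

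Splenocyte values of the 57 regions called higher in YFP-high cells are a description, since the rule asked for a peak in both splenocyte libraries. A splenocyte value above both day 9 means counts as nearer to YFP-high. On values centred on regions called in all 11 libraries, the naive value was nearer to the YFP-high than to the YFP-low mean in 41 of the 57 (71.9%, against 54.0% of all members). It was above the YFP-high mean in 34, between the means in 12 and below the YFP-low mean in 11. The antigen-experienced value was nearer to YFP-high in 36 (63.2%, against 52.1%) and above its mean in 31. For the 84 regions higher in high_to_high than in low_to_low libraries, the naive value was nearer to high_to_high in 49 (58.3%, against 53.0% of all members) and the antigen-experienced value in 48 (57.1%, against 49.7%). Their median naive value was -0.17 relative to the high_to_high mean. These are single libraries and the counts have no test.

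More members differed between cells that were YFP-high both times and cells that stayed low. By limma 84 members were higher and 2 lower in high_to_high than in low_to_low libraries, or 1.37% of members, against 0.596% of all tested regions (0.558% higher, 0.0378% lower). The median fold change of the 84 was 0.93 (0.58 to 1.42), and in 82 of them the groups did not overlap. The 108 other regions called higher had a median of 0.94, and 104 of them did not overlap. Plch2 led (chr4:155050102-155050386), with 19.8 and 18.3 in high_to_high and 11.2, 6.57 and 7.30 in low_to_low libraries (1.42 ± 0.24 SE, limma adjusted p = 0.00119). Both splenocyte libraries held more, 57.7 and 63.7. In Fndc7 (chr3:108865705-108866002) the values were 12.6 and 13.5 against 6.27, 5.61 and 5.80 (1.32 ± 0.22 SE, limma adjusted p = 0.00119), with 76.1 and 50.1 in splenocytes. It is also the member with the largest day 9 deficit among those with a gene. In Nf1 (chr11:79460859-79461105), the gene of neurofibromin, which switches Ras off, they were 31.0 and 20.8 against 13.8, 12.9 and 11.2 (1.25 ± 0.18 SE, limma adjusted p = 0.000407). Low_to_high libraries held 18, 15 and 13.7 there, below both high_to_high libraries.

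The other 7 of the 10 largest were in Aldh1a3 (1.29), Mcoln2 (1.25), Evi5 (1.22), Dock9 (1.21), Zgrf1 (1.16) and Scp2 (1.14) and near Plxdc1 (1.16), with limma adjusted p from 0.000234 to 0.00127. Dock9 activates the small GTPase Cdc42, and Scp2 carries sterols. Of all members 1.34% were called higher, and the gene lists were not tested against this share. Naive and memory genes had 2 of 70 members higher, at Btg1 and in Bach2 (chr4:32423730-32423982, 0.61 ± 0.15 SE, limma adjusted p = 0.0417). The effector list had 1 of 35, in Zeb2 (chr2:45017270-45017504), a repressor gene of terminal effector cells. It held 22.5 and 16.9 in high_to_high, 14.3, 17 and 12.7 in low_to_high and 11.4, 16.1 and 10.5 in low_to_low libraries (high_to_high minus low_to_low 0.90 ± 0.18 SE, limma adjusted p = 0.00738). These regions were chosen for naming after their values were seen, as members of the lists.

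The 2 lower regions were in Kcnt1 and at the Cdca7l promoter. Cdca7l, a partner of MYC in dividing cells, held 33.7 and 29.8 in high_to_high, 43.2, 49.1 and 40.3 in low_to_high and 47.7, 67.3 and 55.4 in low_to_low libraries (chr12:117843656-117843897, -0.52 ± 0.12 SE, limma adjusted p = 0.0323). The 2 groups tested did not overlap. An effector peak lay 65 bp away, so that a small change in peak edges would remove this member. Kcnt1 (chr2:25913277-25913504) held 21.5 and 28.4 against 42.5, 49.1 and 45.8 (-0.57 ± 0.13 SE, limma adjusted p = 0.0341). With cyclic loess normalization neither passed (limma adjusted p = 0.0525 for Cdca7l and 0.0744 for Kcnt1).

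Leaving out high_to_high replicate 1 moved the 86 calls to 23 (19 higher, 4 lower). Among all tested regions 48 were then higher and 98 lower. Without high_to_high replicate 2 the calls were 35, of 85 higher and 17 lower among all tested regions. They were 148 (of 297 and 18) without low_to_low replicate 1 and 29 (of 66 and 2) without low_to_low replicate 2. Without low_to_low replicate 3 they were 44 (of 113 and 4). Of the 12 regions named here from this comparison's largest changes, 7 passed in each of these fits. Adding the tags-in-peaks share as a covariate left 0 calls, with positive values in all 84 (median 0.63, median SE 0.29). On the deposited scale, where the median tested region differed by -0.30, 61 members were higher and 959 lower, of 149 and 7261 among all tested regions.

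Between cells that gained YFP after day 3 and cells that stayed low, limma found 6 members higher and 0 lower in the former, or 0.0954% of members, against 0.032% of all tested regions (11 higher and 0 lower of 34383). At an unadjusted p under 0.05, 359 members were higher and 112 lower (7.49%, against 5.56% of all tested regions, with 1172 higher and 738 lower). The 6 lay in Cacna1d (1.01 ± 0.17 SE), Fnip2 (0.96 ± 0.17 SE), Evi5 (0.93 ± 0.15 SE), Eipr1 (0.77 ± 0.15 SE) and Gm7244 (0.75 ± 0.15 SE), with limma adjusted p from 0.0125 to 0.0430. The sixth (chr19:33265307-33265530) had no gene within 100 kb and held 26.1, 25.1 and 23.8 in low_to_high and 17.6, 17 and 13.1 in low_to_low libraries (0.80 ± 0.14 SE, limma adjusted p = 0.0132). The groups did not overlap in any of the 6, nor in any of the 5 other regions called higher. In Eipr1 (chr12:28834354-28834640), a gene of endosome recycling, low_to_high libraries held 48.1, 36.8 and 33.8 and low_to_low libraries 32.8, 23.2 and 21.5. High_to_high libraries held 48.0 and 36.6, and the splenocyte libraries 108.2 and 110.4, far above all day 9 values.

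Members with the lowest p among those with lower values in low_to_high libraries were in Asb7 (-0.58, limma adjusted p = 0.372), at the Inpp5a promoter (-0.51, limma adjusted p = 0.441) and in Gse1 (-0.39, limma adjusted p = 0.530), and did not pass. Inpp5a, which ends inositol phosphate signals, held 14.9, 13.9 and 11.3 in low_to_high, 12.6 and 13.3 in high_to_high and 21.4, 23.7 and 20.8 in low_to_low libraries. The YFP states did not overlap on that scale. The same-numbered libraries of these groups deviated together, and with the replicate number as a block 23 members were higher and 0 lower, all 6 among them, or 0.366% of members against 0.16% of all tested regions (55). Single libraries again decided the count, with 29 calls without low_to_low replicate 1 (of 54 higher and 2 lower among all tested regions). There were 3 without low_to_high replicate 1 (of 5). When low_to_low replicate 2, low_to_low replicate 3 or low_to_high replicate 3 was left out, 0 of all tested regions were called. With the tags-in-peaks share as a covariate, and on the deposited scale, where the median tested region differed by -0.17, 0 were called.

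Between the YFP-high groups, which differ in their YFP state at day 3, limma called 0 of 6292 members and 0 of 34383 regions (0%). At an unadjusted p under 0.05 there were 314 members (4.99%, against 5.09% of tested regions), 113 higher and 201 lower in low_to_high libraries. The lowest adjusted p of a member was 0.740, in Fbxl17 (chr17:63356348-63356578), a ubiquitin ligase gene. It held 7.89, 6.86 and 5.28 in low_to_high and 14.3 and 10.5 in high_to_high libraries, a log2 fold change of -0.93 ± 0.20 (SE). Low_to_low libraries held 6.39, 8 and 6.66. Nf1 (-0.80, limma adjusted p = 0.831) and a region near Sestd1 (-0.64, limma adjusted p = 0.923) came next, and Tnfrsf10b (0.67), Acot7 (0.46) and 1700025G04Rik (0.49) had the lowest p among higher values, each with a limma adjusted p of 0.923. The middle 90% of members lay between -0.32 and 0.27, with a median standard error of 0.17, so that small differences were not detectable with 2 and 3 libraries. The comparisons of this section share libraries, high_to_high, low_to_high and low_to_low each entering 3 of the 4, and are not independent of each other.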

How the data were processed

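Reads were aligned with Bowtie2 to mm10 and peaks called with HOMER 4.10, and DESeq2 is also named, all per the submitters' processing notes. Per the file headers, the authors called peaks in each library alone, without a control library, at an FDR of 0.001, at least 4-fold over the local 10 kb and a local p-value of at most 1e-04. The deposited normalized tag count, a signal value, is tags per 10 M tags, and it alone was used here for levels. The deposited score, the fold over local signal (a ratio) and the p-value against local signal are the authors' values per the file headers, and were not tested here. Peaks on other sequences, up to 0.104% of the peaks of any library, were not used.

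A region's value is its highest normalized tag count per library. limma 3.58.1 (R 4.3.3; lmFit, eBayes with trend) was run on log2(value + 1), with each library's median set to 0 across the 34383 regions that had a peak in all 8 day 9 libraries, and with Benjamini-Hochberg adjustment over all of them and a threshold of 0.05. Exact permutation tests over libraries were two-sided. The fit was checked on simulated data. Genes are the nearest protein-coding RefSeq span (GRCm38.p6) within 100 kb, and promoter windows come from RefSeq, whose table is not complete and was not used for chromosome 18. A missing effector peak also depends on the caller's local threshold.

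Named regions were, per comparison, all called members or the 10 largest by fold change (1 per gene), the 3 of lowest p in a direction without a call, up to 4 strongest of each gene list, the 10 strongest members, the 10 genes with most members, the 5 extremes of day 9 against splenocytes on each side, and 3 regions just inside and outside the rule. Members and lists were chosen with earlier results of these data known. Same-numbered low_to_low and low_to_high libraries deviated together (correlations of 0.298, 0.136 and 0.161 over regions), so that their comparison is also given with the number as a block. Alternatives were other centring, pseudocount, filter, merging, list length, trend, a covariate, the replicate block and leaving out each library. Python 3.11.15, pandas 2.3.3, scipy 1.17.1 and bedtools 2.31.1 were used.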

Additional observations from a re-analysis of the deposited data

Results flagged for a closer look

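In 5 of 83 tests of a single library against the rest of the 5 YFP-high libraries, the gap of that library passed Dixon's 95% critical value of 0.71, where chance flags about 1 in 20 groups, or 4.15 here. The Evi5 region held 33.1 in high_to_high replicate 1 and 26.5 to 28.2 in the others. The Gm7244 region held 44.7 in the same library and 34.5 to 37.4 in the others. Near Gucy2e, low_to_high replicate 2 held 19.7 and the others 11.4 to 12.6. High_to_high replicate 2, the deepest library, was the low one in Lef1, with 46.8 against 58.9 to 63.7. It was also low near Cxcr4, with 45.9 against 55.4 to 57.2. Its most common peak width was 137 bp, against 173 bp in the other YFP-high libraries, and the part of this width was not tested.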

How the results depend on the processing

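Both the counts of called members and the balance of directions followed the processing. Against 57 calls between the YFP states, the fit without centring gave 314 (39 higher, 275 lower). A mean of at least 15 gave 31 (of 55 among all tested regions), eBayes without trend 5 (of 12) and the covariate 0. Leaving out 1 library gave 4 to 101. Against 86 calls between high_to_high and low_to_low, the fit without centring gave 1020 (61 higher, 959 lower). A mean of at least 15 gave 38 (of 73 higher and 3 lower), no trend 52 (of 131 and 3) and the covariate 0. Leaving out 1 library gave 23 to 148. Against 6 calls between low_to_high and low_to_low, no centring gave 0, no trend 1 and the covariate 0, and leaving out 1 library gave 0 to 29. With the replicate block the 3 counts were 87, 119 and 23. Over all tested regions that block gave 207 higher and 6 lower, 330 and 44, and 55 and 0. Low_to_high against high_to_high had 0 members called in every setting run. Over all tested regions it had 11 higher without high_to_high replicate 1, 4 lower with the block and 1 higher without centring. Same-numbered pairs with high_to_high had correlations from -0.041 to -0.0012. The 28 named calls, counting a region once in each comparison that called it, passed in 358 of 462 settings, fell short in 104 and reversed in 0. The difference in the share called again, 0.1886 percentage points, was -0.1385 where effector peaks within 500 bp were not allowed, and -2.545 to 1.993 with 1 library left out. The day 9 level of members was -0.3351 without centring. Fewer libraries or regions were tested where a library or low values were left out. For the other settings the cause was not tested. The rule without 1 day 9 library, a setting chosen after seeing the data, kept the member count within 6326 to 6660.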

Other observations

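Among the 14809 splenocyte regions without an effector peak, 19 had a peak in all 5 YFP-high and none of the 3 YFP-low libraries, and 13 the reverse. Among splenocyte regions that kept an effector peak, these patterns were found in 5 and 2. In promoter windows of returning regions, the TCF and LEF core CTTTGAT stood in 3.83%, against 2.60% in windows of regions called in all 11 libraries and 3.76% in all windows. The interferon response core of IRF factors stood in 4.79, 2.77 and 3.45%, and the GATA core AGATAAG in 0.957, 1.56 and 3.04%.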
